A study of Homo sapiens with 12 samples.

Results

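Receptor tyrosine kinases other than RET were followed in thyroid cancer cells given TRIM35 siRNA or control siRNA. The 10 receptors are EGFR, ERBB2 and ERBB3 of the EGF receptor family, MET, AXL, EPHA2, PDGFRA, PDGFRB, FGFR1 and IGF1R. They were taken by name out of 61806 genes in the deposited table, without a filter on their values. The list was drawn up with earlier results of these data known. The cells were K1 and TPC-1, established human papillary thyroid cancer lines labelled wild type, harvested 24 h after transfection. The 4 groups, with 3 libraries each, were K1 with TRIM35 siRNA, K1 with negative control siRNA, TPC-1 with TRIM35 siRNA and TPC-1 with negative control siRNA, so every group had received an siRNA. Nothing in the labels says whether replicates were separate cultures, and p-values then measure only the variation among libraries, which could be technical. For 1 library of the TPC-1 control group the title names a different line, and it was kept there by its remaining labels and its table column.

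A receptor tyrosine kinase binds a ligand outside the cell, pairs with another receptor and phosphorylates tyrosines on its partner and on itself. Adaptor proteins dock on these sites and pass the signal to the RAS-MAPK and PI3K-AKT pathways, and ubiquitin ligases such as CBL and feedback inhibitors such as the Sprouty proteins end it. In papillary thyroid cancer the pathway is best known through rearranged RET and mutant BRAF, with EGFR and MET among the receptors often studied beside them.

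Library totals ran from 16705044 to 22928861 counts, with 22526 to 28045 genes detected. TRIM35 itself (ENSG00000104228) measured 1.20, 1.49 and 1.53 FPKM in K1 siRNA libraries, against 1.51, 1.85 and 1.47 FPKM in K1 control libraries. In TPC-1 it measured 2.34, 2.56 and 2.58 FPKM in siRNA libraries, against 2.86, 2.91 and 3.06 FPKM in control libraries. FPKM, the authors' unit, is the count divided by exon length and library size. The groups overlapped in K1 and did not in TPC-1, and neither line passed the test (log2 fold change -0.19, SE 0.17, in K1 and -0.24, SE 0.16, in TPC-1; edgeR's quasi-likelihood test with Benjamini-Hochberg adjustment over all genes, adjusted p = 1 in both). Of 11 thyroid markers, PAX8, FOXE1 and HHEX averaged at least 1 FPKM in both lines, and NKX2-1 had no count in any of the 12 libraries.

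Promoter windows show where transcription of the receptors starts in the reference. The RefSeq windows examined (GRCh38.p14, 250 bases before a start and 50 after it) covered 8 of the 10 receptors, 11 windows in all. A receptor left out here may still have a window in RefSeq. Those printed below are both windows of EGFR, whose starts differ in CpG content, and 1 window each of the most abundant receptor (AXL) and of the pair of relatives that differed in opposite directions between the lines (PDGFRA and PDGFRB). Capitals mark matches, on either strand, to an AP-1 motif (TGANTCA), a TEAD motif (GGAATG), an SP1 motif (GGGCGG) or an E-box (CACGTG).
EGFR, chr7:55018767-55019066, plus strand: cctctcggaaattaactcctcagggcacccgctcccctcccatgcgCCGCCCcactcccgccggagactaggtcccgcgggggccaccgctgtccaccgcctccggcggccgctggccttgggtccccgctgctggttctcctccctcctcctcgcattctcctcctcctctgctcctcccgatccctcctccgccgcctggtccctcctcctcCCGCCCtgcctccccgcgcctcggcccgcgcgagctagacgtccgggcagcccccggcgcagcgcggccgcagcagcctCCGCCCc
EGFR, chr7:55109589-55109888, plus strand: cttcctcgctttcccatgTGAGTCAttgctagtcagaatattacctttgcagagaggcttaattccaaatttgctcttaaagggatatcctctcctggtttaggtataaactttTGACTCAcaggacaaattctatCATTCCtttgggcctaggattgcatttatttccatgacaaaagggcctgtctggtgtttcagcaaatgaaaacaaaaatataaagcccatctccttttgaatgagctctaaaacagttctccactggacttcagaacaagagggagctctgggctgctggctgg
AXL, chr19:41218973-41219272, plus strand: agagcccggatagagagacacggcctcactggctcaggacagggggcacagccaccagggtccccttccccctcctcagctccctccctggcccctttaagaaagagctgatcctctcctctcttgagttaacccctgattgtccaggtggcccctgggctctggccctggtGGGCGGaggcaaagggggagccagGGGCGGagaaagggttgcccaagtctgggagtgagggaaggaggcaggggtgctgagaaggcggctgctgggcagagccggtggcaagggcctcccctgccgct
PDGFRA, chr4:54229043-54229342, plus strand: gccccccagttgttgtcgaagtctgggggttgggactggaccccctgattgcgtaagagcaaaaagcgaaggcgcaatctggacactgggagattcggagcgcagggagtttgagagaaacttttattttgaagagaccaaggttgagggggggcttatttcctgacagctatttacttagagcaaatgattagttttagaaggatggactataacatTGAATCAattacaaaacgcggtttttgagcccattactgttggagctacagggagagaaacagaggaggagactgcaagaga
PDGFRB, chr5:150155796-150156095, minus strand: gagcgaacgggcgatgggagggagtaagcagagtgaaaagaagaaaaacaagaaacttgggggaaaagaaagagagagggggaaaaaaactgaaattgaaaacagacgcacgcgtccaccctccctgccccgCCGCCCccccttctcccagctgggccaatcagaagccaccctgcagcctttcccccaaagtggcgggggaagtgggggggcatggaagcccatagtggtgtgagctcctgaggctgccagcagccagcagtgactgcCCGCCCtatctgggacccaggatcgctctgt

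The first EGFR window was 75.3% G or C with 33 CpG dinucleotides and 3 SP1 matches. The second EGFR window, at a start inside the gene, was 42.0% G or C with 1 CpG, 2 AP-1 matches and 1 TEAD match. The AXL window printed held 2 SP1 matches, while its other window, chr19:41226505-41226804, held 1 TEAD match and no SP1 match. The PDGFRA window printed was 47.0% G or C with 8 CpG and 1 AP-1 match, while its other window, chr4:54233710-54234009, was 66.7% G or C with 32 CpG, 2 SP1 matches and no AP-1 match. PDGFRB's window held 2 SP1 matches. Over 35116 promoters of this length, 45.0% held an SP1 match, 14.0% a TEAD match, 7.71% an AP-1 match and 7.26% an E-box. A match describes letters in the window and says nothing of binding, and which start the cells used was not measured.

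Across the receptors, AXL and MET mRNA were the most abundant in both lines, and PDGFRA and ERBB3 were at the bottom. AXL made up 40.3% of the receptors' summed FPKM in K1 control cells and 55.7% in TPC-1 control cells. Mean levels per length in K1 control cells ran from AXL (55.0 ± 2.89 FPKM, SD, n = 3) through MET (39.9 ± 2.54), EGFR (19.97 ± 2.64), EPHA2 (12.4 ± 0.599), FGFR1 (4.73 ± 0.656), ERBB2 (3.05 ± 0.230), IGF1R (0.757 ± 0.0231), PDGFRB (0.357 ± 0.0764) and PDGFRA (0.350 ± 0.0520) to ERBB3 (0.177 ± 0.0404). Only the neighbours PDGFRB and PDGFRA overlapped in this order. In TPC-1 control cells the order was AXL (122 ± 5.60 FPKM), MET (50.7 ± 5.58), EPHA2 (26.8 ± 1.29), EGFR (10.1 ± 1.29), ERBB2 (2.72 ± 0.0100), IGF1R (2.59 ± 0.442), FGFR1 (2.50 ± 0.358), PDGFRB (1.69 ± 0.283), ERBB3 (0.0367 ± 0.0208) and PDGFRA (0.0167 ± 0.00577). The neighbours that overlapped there were ERBB2 with IGF1R, IGF1R with FGFR1, and ERBB3 with PDGFRA. The siRNA libraries of each line gave the same order as their controls. All 10 receptors passed the filter on low counts.

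**Figure D1:**
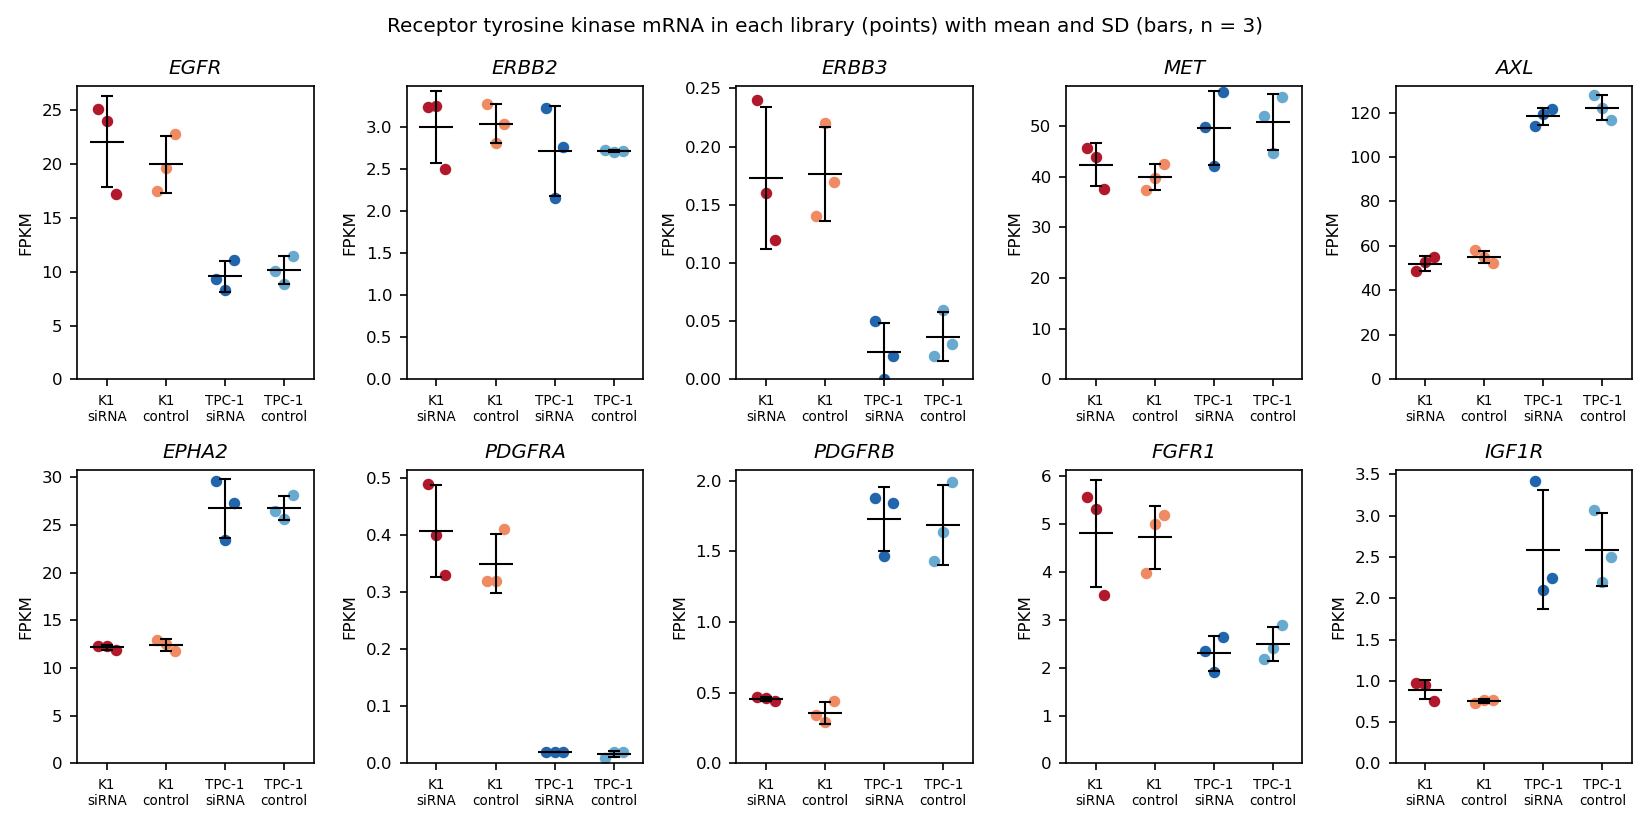
FPKM of each receptor (vertical axis, linear from 0) in the 12 libraries, grouped as K1 siRNA, K1 control, TPC-1 siRNA and TPC-1 control; points are libraries, bars the mean and SD of 3. The lines stand apart for most receptors, whereas siRNA and control points of a line overlap or meet in every panel.

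The comparison of the lines asked which receptors differ between the cells that received the same siRNA. In control libraries, 4 of the 10 receptors were higher in K1 (PDGFRA, ERBB3, EGFR and FGFR1) and 5 were lower in K1 (PDGFRB, IGF1R, AXL, EPHA2 and MET), while ERBB2 was not called. Among all 17447 genes tested, 35.8% were higher and 32.1% lower, 67.9% in either direction. The lines thus differed in most genes, and nothing particular to the receptors is read from their count. Their median log2 fold change was -0.19, against 0.06 over all genes. The TRIM35 siRNA libraries, which share no library with that contrast, gave 4 higher, 5 lower and ERBB2 not called, where 35.9% of all genes were higher, 32.4% lower and 68.3% called. FPKM ranges of the lines did not overlap for 8 of 10 receptors in siRNA libraries (67.3% of all genes), where ERBB2 and MET overlapped, and for 10 of 10 in control libraries (71.8% of all genes).

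**Figure D2:**
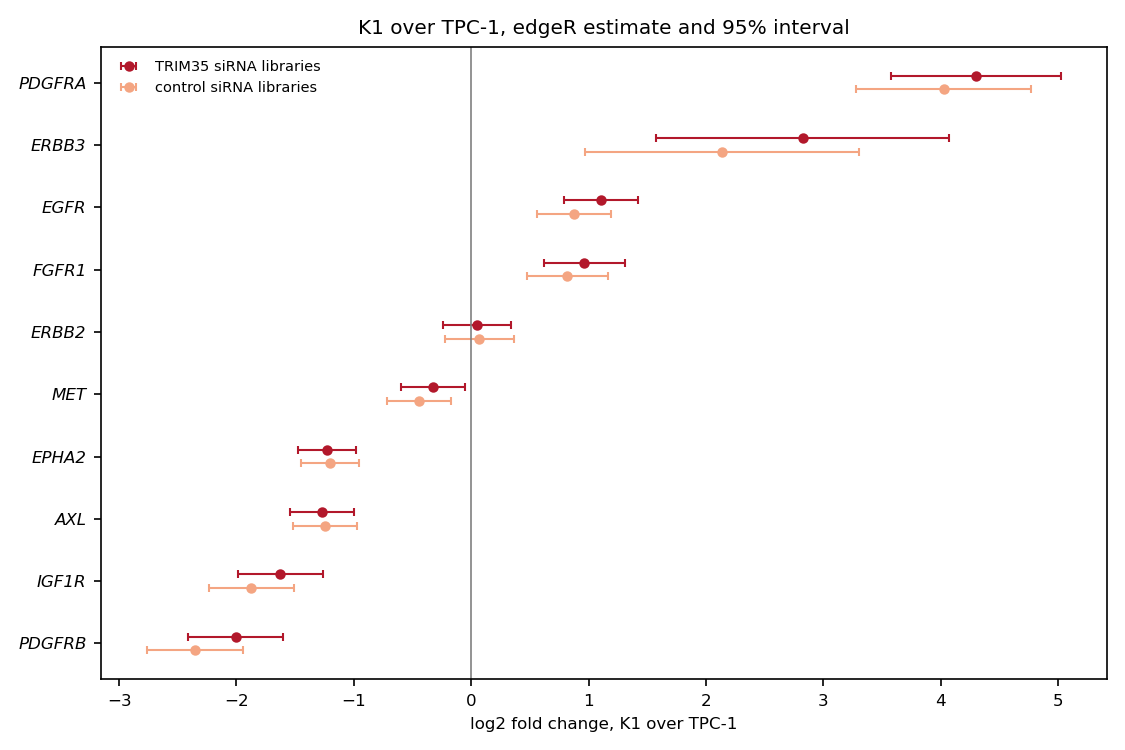
Log2 fold change of K1 over TPC-1 for each receptor (horizontal axis), in TRIM35 siRNA libraries (dark) and control libraries (light), as edgeR estimates with 95% intervals. PDGFRA is farthest to the right, at 4.30 in siRNA and 4.03 in control libraries, PDGFRB is farthest to the left, and the ERBB2 intervals cross 0.

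The platelet-derived growth factor receptors, which drive growth of mesenchymal cells, differed in opposite directions. PDGFRA (ENSG00000134853, hg38 chromosome 4, 54229280 to 54298245, plus strand) measured 0.49, 0.40 and 0.33 FPKM in K1 siRNA, 0.32, 0.32 and 0.41 in K1 control, 0.02, 0.02 and 0.02 in TPC-1 siRNA, and 0.01, 0.02 and 0.02 in TPC-1 control libraries. These values rest on 59 to 81 counts per K1 library and on 2 to 5 per TPC-1 library, so the gene was close to undetected in TPC-1. A protein-coding gene on the same strand overlaps PDGFRA in the GENCODE 29 annotation, and how reads of the pair were assigned is not stated. The log2 fold change of K1 over TPC-1 was 4.30 (SE 0.34, adjusted p = 2.00e-08) in siRNA libraries and 4.03 (SE 0.35, adjusted p = 5.81e-08) in control libraries, which is 16.3-fold with a 95% interval of 9.71 to 27.3. PDGFRB (ENSG00000113721, chromosome 5, 150113839 to 150155872, minus strand) measured 0.47, 0.46 and 0.44 FPKM in K1 siRNA, 0.34, 0.29 and 0.44 in K1 control, 1.88, 1.47 and 1.84 in TPC-1 siRNA, and 1.43, 1.64 and 1.99 in TPC-1 control libraries. Every TPC-1 library lay above every K1 library. PDGFRB was lower in K1, by a log2 fold change of -2.01 (SE 0.19, adjusted p = 1.41e-07) in siRNA libraries and -2.35 (SE 0.19, adjusted p = 2.87e-08) in control libraries, where the level was 5.11 times higher in TPC-1. In a cell line a lower level does not tell fewer expressing cells from less mRNA per cell.

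Fibroblast markers, to which both receptors are often tied in tissue, also differed between the lines. Of 9 listed markers 7 were tested, 6 of them higher in K1 control cells and none lower, beside 35.8% higher and 32.1% lower over all genes. Their summed level was 73.8 to 82.7 FPKM in K1 libraries, against 14.5 to 17.4 FPKM in TPC-1 libraries. Most of that sum was PDPN alone, at 58.71 to 65.85 FPKM in K1 and 12.65 to 15.39 FPKM in TPC-1. The matrix genes COL1A1, COL1A2, COL3A1, DCN and LUM were low in both lines, none above 0.49 FPKM in any library. FAP, THY1, ACTA2 and PDPN averaged at least 1 FPKM in K1, and ACTA2 and PDPN in TPC-1. Other marker lists leaned toward K1 control cells as well, with 4 of 6 tested epithelial markers and 4 of 5 thyroid markers higher. Leukocyte markers had 3 of 3 tested higher and endothelial markers 1 of 2, and 1 thyroid marker was lower. PDGFRA stood on the same side as the fibroblast list and PDGFRB on the opposite side. The part of the fibroblast markers in either result was not tested.

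Genes with a pattern most like that of PDGFRA and of PDGFRB were looked for across all libraries. Likeness was measured over the 12 libraries and 11198 genes averaging at least 1 FPKM, a level that PDGFRA itself did not reach. The measure was the root mean square difference of the log2 level, each gene centred on its mean. Nearest to PDGFRA were WIPI1 (0.175), GDNF (0.181) and CDH13 (0.236), and nearest to PDGFRB were LEPR (0.175), GULP1 (0.183) and KLHL23 (0.186). GDNF encodes a secreted ligand of the RET receptor complex. Its log2 fold change between K1 control and TPC-1 control libraries was 3.91, a size that follows from its choice by likeness to PDGFRA.

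Among the EGF receptor family, EGFR and ERBB3 were higher in K1, and ERBB2 was not called. EGFR binds ligands such as EGF, HBEGF and EREG. EGFR (ENSG00000146648, chromosome 7, 55019017 to 55211628, plus strand) measured 25.1, 24.0 and 17.2 FPKM in K1 siRNA, 17.5, 19.6 and 22.8 in K1 control, 9.30, 8.29 and 11.1 in TPC-1 siRNA, and 10.1, 8.87 and 11.4 in TPC-1 control libraries. Libraries of a line spread widely, but no TPC-1 value reached the lowest K1 value. The log2 fold change of K1 over TPC-1 was 1.11 (SE 0.15, adjusted p = 8.05e-06) in siRNA libraries and 0.88 (SE 0.15, adjusted p = 8.07e-05) in control libraries. The difference in control libraries was 1.84-fold, with an interval of 1.48 to 2.28.

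ERBB2, the family member with no known ligand of its own and the preferred partner of the others, was not called between the lines. ERBB2 (ENSG00000141736, chromosome 17, 39687914 to 39730426, plus strand) measured 3.24, 3.26 and 2.51 FPKM in K1 siRNA, 3.28, 2.82 and 3.04 in K1 control, 3.23, 2.16 and 2.77 in TPC-1 siRNA, and 2.73, 2.71 and 2.72 in TPC-1 control libraries. The log2 difference was 0.05 in siRNA libraries (95% interval -0.24 to 0.34, adjusted p = 0.765) and 0.07 in control libraries (-0.22 to 0.36, adjusted p = 0.673). A difference of up to 1.28-fold in favour of K1 control cells is within that interval. MIEN1 (6.30 to 18.6 FPKM) and PGAP3 overlap ERBB2 in gene extent in the GENCODE 29 annotation. The strandedness of the libraries is not given, so reads from a shared stretch cannot be told apart, and its length was not measured.

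ERBB3, a receptor with an impaired kinase that signals through its partners, was near the detection limit. ERBB3 (ENSG00000065361, chromosome 12, 56076799 to 56103505, plus strand) measured 0.24, 0.16 and 0.12 FPKM in K1 siRNA, 0.14, 0.22 and 0.17 in K1 control, 0.05, 0.00 and 0.02 in TPC-1 siRNA, and 0.02, 0.06 and 0.03 in TPC-1 control libraries. The TPC-1 values stand for 10, 0 and 6 counts in siRNA and 5, 12 and 7 counts in control libraries. The log2 fold change of K1 over TPC-1 was 2.82 (SE 0.59, adjusted p = 5.20e-04) in siRNA libraries and 2.13 (SE 0.55, adjusted p = 0.00280) in control libraries. Without TPC-1 siRNA library 1 it was 3.68 in siRNA libraries, so its size there hangs on a few counts. Its interval in control libraries ran from 1.96-fold to 9.84-fold, and a readthrough gene overlaps ERBB3 on the same strand.

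MET, AXL and EPHA2, all of them receptors tied to cell motility, were lower in K1. AXL, the receptor for GAS6 (ENSG00000167601, chromosome 19, 41219223 to 41261766, plus strand), measured 48.5, 52.8 and 54.9 FPKM in K1 siRNA, 58.0, 54.9 and 52.2 in K1 control, 114, 119 and 122 in TPC-1 siRNA, and 128, 122 and 117 in TPC-1 control libraries. The level in TPC-1 was the higher one in every library, and libraries of each line lay close together. The log2 fold change was -1.27 (SE 0.13, adjusted p = 3.40e-07) in siRNA libraries and -1.25 (SE 0.13, adjusted p = 4.34e-07) in control libraries. EPHA2, a receptor for membrane-bound ephrin-A ligands (ENSG00000142627, chromosome 1, 16124337 to 16156069, minus strand), measured 12.3, 12.3 and 11.9 FPKM in K1 siRNA, 13.0, 12.5 and 11.8 in K1 control, 29.6, 23.5 and 27.3 in TPC-1 siRNA, and 26.5, 25.7 and 28.2 in TPC-1 control libraries. Its log2 fold change was -1.23 (SE 0.12, adjusted p = 1.54e-07) in siRNA libraries and -1.21 (SE 0.12, adjusted p = 1.93e-07) in control libraries, and the ranges of the lines did not overlap.

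MET, the hepatocyte growth factor receptor, differed least among the called receptors. MET (ENSG00000105976, chromosome 7, 116672196 to 116798377, plus strand) measured 45.6, 43.9 and 37.5 FPKM in K1 siRNA, 37.4, 39.8 and 42.4 in K1 control, 49.9, 42.1 and 56.7 in TPC-1 siRNA, and 51.9, 44.6 and 55.6 in TPC-1 control libraries. The K1 and TPC-1 ranges overlapped in siRNA libraries and did not overlap in control libraries. Its log2 fold change was -0.32 (SE 0.13, adjusted p = 0.0354) in siRNA libraries and -0.45 (SE 0.13, adjusted p = 0.00604) in control libraries. The call in siRNA libraries was lost under 13 of 24 alternatives, and the adjusted p over all 24 ran from 0.00267 to 0.233. It was lost without K1 siRNA library 1 (-0.35), 2 (-0.33) or 3 (-0.29) and without TPC-1 siRNA library 3 (-0.23).

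The growth factor receptors FGFR1 and IGF1R differed in opposite directions. FGFR1, a receptor for fibroblast growth factors (ENSG00000077782, chromosome 8, 38400215 to 38468834, minus strand), measured 5.58, 5.33 and 3.52 FPKM in K1 siRNA, 3.98, 5.01 and 5.20 in K1 control, 2.34, 1.91 and 2.65 in TPC-1 siRNA, and 2.19, 2.41 and 2.89 in TPC-1 control libraries. It was higher in K1, by a log2 fold change of 0.96 (SE 0.16, adjusted p = 7.69e-05) in siRNA libraries and 0.82 (SE 0.16, adjusted p = 3.39e-04) in control libraries. LETM2, at 0.910 to 5.20 FPKM, overlaps FGFR1 in gene extent. Reads from a shared stretch cannot be told apart without strand, and its length was not measured. IGF1R, the receptor for insulin-like growth factors (ENSG00000140443, chromosome 15, 98648539 to 98964530, plus strand), measured 0.970, 0.950 and 0.760 FPKM in K1 siRNA, 0.730, 0.770 and 0.770 in K1 control, 3.42, 2.10 and 2.25 in TPC-1 siRNA, and 3.07, 2.20 and 2.50 in TPC-1 control libraries. All K1 values were under 1 FPKM and all TPC-1 values over it. The log2 fold change was -1.63 (SE 0.17, adjusted p = 4.80e-07) in siRNA libraries and -1.87 (SE 0.17, adjusted p = 1.03e-07) in control libraries. The level in control libraries was 3.66 times higher in TPC-1.

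The siRNA comparison asked whether any receptor changed with TRIM35 siRNA. TRIM35 mRNA itself was not called lower in either line (log2 fold change -0.19 in K1 and -0.24 in TPC-1). The comparison therefore describes cells given the siRNA, and a response to loss of TRIM35 cannot be read from it. None of the 10 receptors was called in K1, in TPC-1 or for the difference between the lines, and the share of all genes called was 0% in each of these comparisons. At an unadjusted p under 0.05, edgeR listed 136 genes in K1, 337 in TPC-1 and 301 for the difference, with no receptor among them. DESeq2 called 0 genes in K1, 2 in TPC-1 and 2 for the difference. Limma called 0 in all 3 with the filter on low FPKM and, without it, 32 in K1, 4 in TPC-1 and 11 for the difference, again with no receptor among them. As deposited, FPKM ranges of siRNA and control libraries overlapped for every receptor in both lines, where 4.74% of all genes did not overlap in K1 and 4.6% in TPC-1. PDGFRB in K1 overlapped only through a rounded value of 0.44 FPKM that a library of each group shared.

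Receptor by receptor, the estimates were small where counts were high. For EGFR the log2 fold change of siRNA over control was 0.14 (SE 0.15) in K1 and -0.08 (SE 0.15) in TPC-1, a difference of 0.23 (SE 0.21). AXL gave -0.07 (SE 0.13) in K1 and -0.05 (SE 0.13) in TPC-1, and MET 0.09 (SE 0.13) in K1 and -0.04 (SE 0.13) in TPC-1. The smallest p of any receptor, 0.0809 before and 1 after adjustment by edgeR over all genes, belonged to PDGFRB in K1. Its fold was 1.30, with a 95% interval of 0.964 to 1.76. Its FPKM in K1 siRNA library 3 equalled that of K1 control library 3 only as rounded. Taken from counts (58 of 18517502 against 52 of 16705044), the siRNA library was slightly higher, so the groups did not overlap before rounding. ERBB3 in TPC-1 had the widest interval, 0.218-fold to 1.64-fold, on 0 to 12 counts per library. The 95% interval stayed within 1.5-fold either way for 6 of 10 receptors in K1, with ERBB3, IGF1R, PDGFRA and PDGFRB outside it. In TPC-1 it stayed within 1.5-fold for 8 of 10, with ERBB3 and PDGFRA outside it. For the difference of the effects, 4 of 10 intervals lay within 1.5-fold. Changes smaller than these intervals were not detectable with 3 libraries per group.

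**Figure D3:**
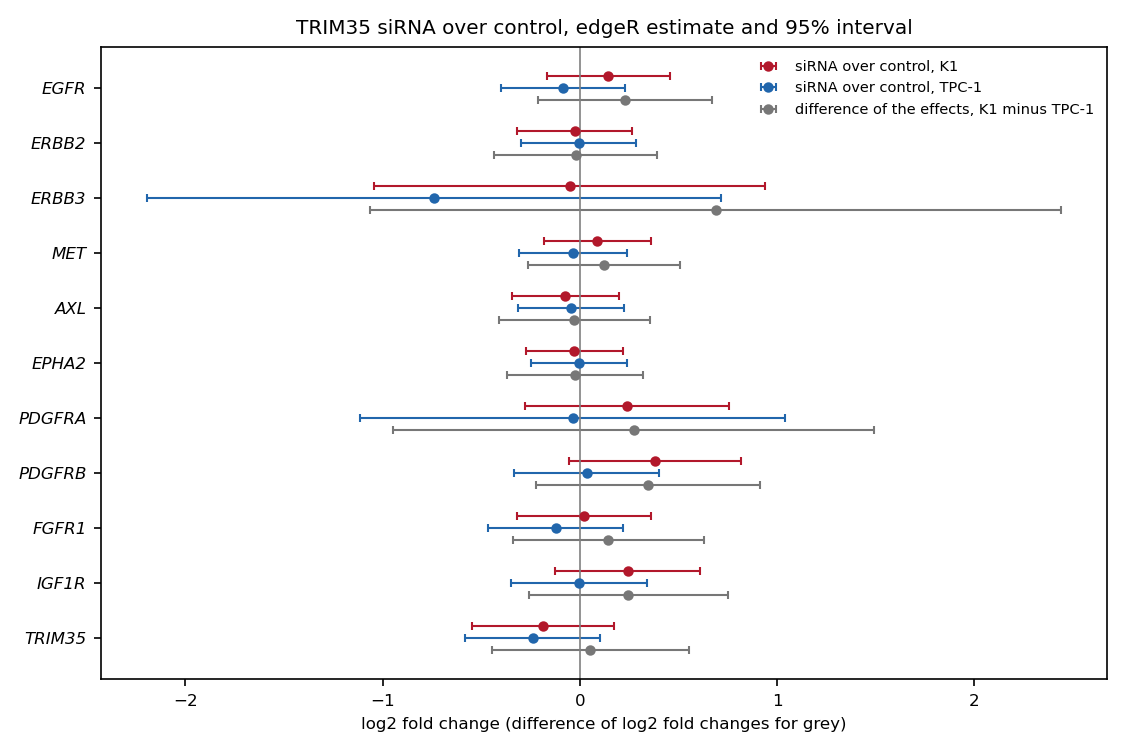
Log2 fold change of TRIM35 siRNA over control for each receptor and TRIM35 in K1 (red) and TPC-1 (blue), with the difference of the effects (grey), as edgeR estimates with 95% intervals. The intervals of all 10 receptors and of TRIM35 include 0, and those of ERBB3 and PDGFRA are the widest.

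Several receptors moved together within a line, across siRNA and control libraries alike. The exonic size of the genes that a library's counts fell on, averaged over its counts, ran from 6817 to 8144 bases over the 12 libraries. It was 7260 to 8144 bases in K1 and 6817 to 7364 bases in TPC-1, so the lines differed in it, with ranges that overlapped. In K1, ordered from the smallest to the largest mean size (siRNA 3, control 1, control 2, siRNA 2, control 3, siRNA 1), EGFR measured 17.2, 17.5, 19.6, 24.0, 22.8 and 25.1 FPKM. FGFR1 measured 3.52 FPKM in the lowest and 5.58 FPKM in the highest. MET was at 37.4 to 37.5 FPKM in the lowest libraries and 45.6 FPKM in the highest. AXL was at 54.9 to 58.0 FPKM in the lowest libraries and 48.5 FPKM in the highest. Not every receptor kept to this order. From smallest to largest mean size, ERBB2 in K1 measured 2.51, 3.28, 2.82, 3.26, 3.04 and 3.24 FPKM. AXL in TPC-1, ordered likewise, measured 119, 114, 128, 122, 122 and 117 FPKM. EGFR, FGFR1 and MET were also highest in the pair of TPC-1 libraries with the largest mean size (siRNA 3 and control 3). In that pair (7309 and 7364 bases) EGFR measured 11.1 and 11.4 FPKM and FGFR1 2.65 and 2.89 FPKM. In the K1 pair nearest in size (siRNA 3 and control 1, 7260 and 7291 bases) EGFR measured 17.2 and 17.5 FPKM and FGFR1 3.52 and 3.98 FPKM. These gaps were smaller than those between the group means of the lines. A fit with the summed FPKM of a library as a covariate, chosen after seeing the data, gave EGFR an siRNA effect of 0.09 on the log2 scale in K1 and -0.02 in TPC-1. In that fit 4 receptors were again higher and 5 lower in K1, and MET was at -0.41 (edgeR adjusted p = 0.00267) in siRNA and -0.47 (adjusted p = 4.24e-04) in control libraries. The source of this composition was not tested. Mean size itself was not fitted, so its part in the differences between the lines was not tested either.

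**Figure D4:**
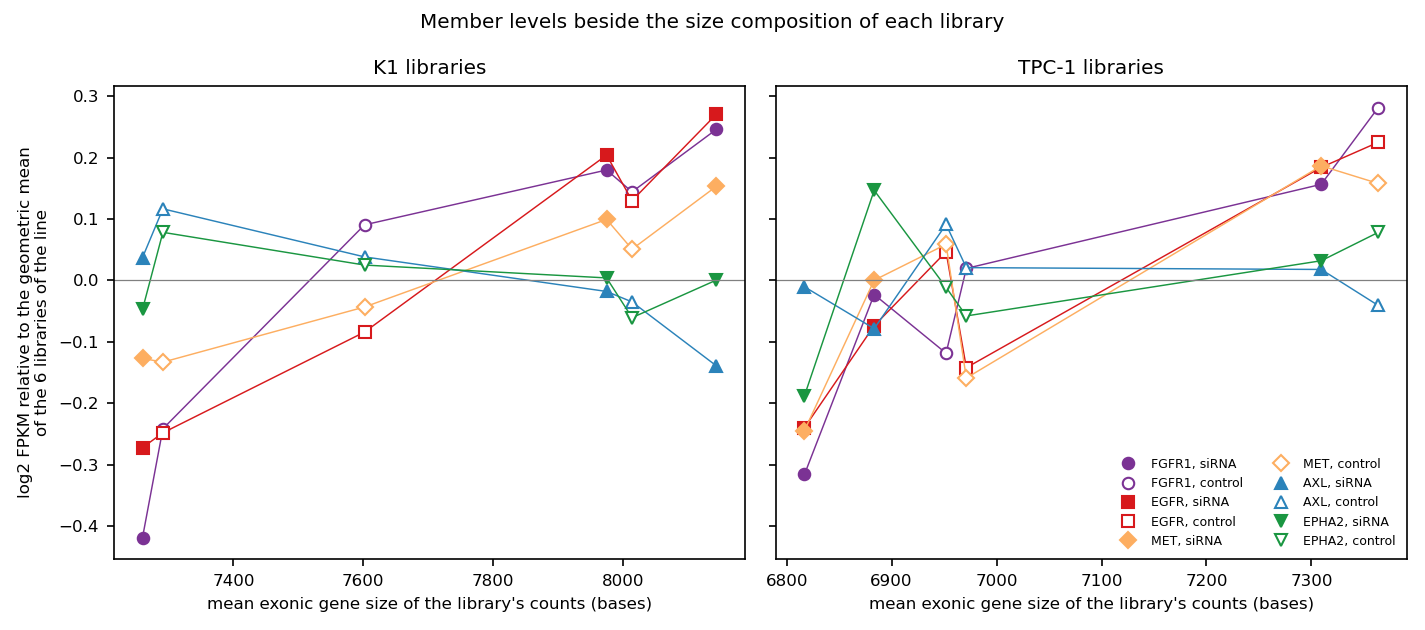
Log2 FPKM of 5 receptors relative to their geometric mean in the line (vertical axis) against the mean exonic gene size of each library's counts in bases (horizontal axis), for K1 and TPC-1 libraries; filled symbols are siRNA and open symbols control. EGFR and FGFR1 are lowest in the K1 libraries of smallest mean size and highest in the one of largest mean size, with both kinds of symbol along the way.

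Around the receptors, genes of 4 pathway lists were compared between the lines, where 35.8% of all genes were higher and 32.1% lower in K1 control cells. Of 28 ligands 25 were tested, and 10 were higher and 13 lower in K1 control cells, or 40% and 52%, with a median log2 fold change of -0.29 against 0.06 over all genes. EREG, an EGFR ligand, averaged 6.53 ± 0.244 FPKM in K1 control and 0.117 ± 0.0321 FPKM in TPC-1 control libraries (SD, n = 3 each; log2 fold change 5.71, SE 0.20). HBEGF, another EGFR ligand, averaged 24.0 ± 1.51 FPKM in K1 control and 3.63 ± 0.400 FPKM in TPC-1 control libraries (2.63, SE 0.16). GAS6, the AXL ligand, was higher in K1 control cells, at 5.51 ± 0.232 FPKM against 1.84 ± 0.276 FPKM in TPC-1, while AXL itself was lower there. FGF5, a fibroblast growth factor, was also higher in K1 (log2 fold change 1.37). Lower in K1 were EFNA1, a ligand of EPHA2, at 0.160 ± 0.106 FPKM against 8.74 ± 0.766 FPKM in TPC-1 control libraries (-5.93, SE 0.31), and PDGFC, a ligand of PDGFRA, at 9.86 ± 0.776 FPKM against 22.3 ± 0.945 FPKM (-1.28, SE 0.12). FGF1 (-3.06) and IGF2 (-5.40) were lower too; without K1 control library 2, IGF2 was at -6.13.

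Other receptor tyrosine kinases numbered 47, of which 30 were tested. In K1 control cells 10 of these were higher and 11 lower, or 33.3% and 36.7%, near the shares over all genes (35.8% and 32.1%), with a median of -0.03. EPHB1, an ephrin-B receptor, averaged 4.53 ± 0.341 FPKM in K1 control and 0.613 ± 0.0611 FPKM in TPC-1 control libraries (log2 fold change 2.79, SE 0.15). KDR and TIE1, best known from endothelium, averaged 1.44 ± 0.139 and 1.21 ± 0.0608 FPKM in K1 control, against 0.0300 ± 0.0100 and 0.107 ± 0.0577 FPKM in TPC-1 control libraries. The 5 endothelial markers summed to 0.410 to 0.590 FPKM in K1 libraries and 0.0800 to 0.150 FPKM in TPC-1 libraries, none averaging 1 FPKM, and CLDN5 was at 0 in every K1 library. LMTK2 was higher in K1 as well (1.82). MERTK and TYRO3, relatives of AXL that also bind GAS6, were lower in K1 along with AXL, at log2 fold changes of -3.92 (SE 0.26) and -0.98 (SE 0.14). ROR1, a receptor for WNT5A (-0.96), and INSR, the insulin receptor and closest relative of IGF1R (-0.75), were lower as well.

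Adaptors and effectors downstream of the receptors had 7 higher, 8 lower and 10 not called of 25 tested, or 28% and 32% beside 35.8% and 32.1% of all genes, and a median of -0.07. GAB2, a docking protein, had a log2 fold change of 2.74 (SE 0.14), the adaptor NCK2 2.07, the PI3K regulatory subunit PIK3R1 1.36 and the adaptor CRKL 0.70. The PI3K subunits PIK3CB (-1.66) and PIK3R3 (-1.35) and the adaptors CRK (-1.28) and GAB1 (-0.68) were lower in K1 control cells, and GAB1 was not called in siRNA libraries (-0.25, adjusted p = 0.0902). The list named receptor inhibitors, drawn up by gene name, had 9 higher, 8 lower and 4 not called of 21 tested. That is 42.9% and 38.1% beside the same shares of all genes, with a median of -0.02. SPRY2, a Sprouty feedback inhibitor, averaged 72.5 ± 6.63 FPKM in K1 control and 18.6 ± 1.40 FPKM in TPC-1 control libraries, while its relative SPRY1 was lower in K1 (-1.84, SE 0.28). CBLB, a ubiquitin ligase of activated receptors (1.98), SPRED1 (0.78) and LRIG1 (4.05, and 4.78 without TPC-1 control library 3) were higher in K1. ERRFI1, an inhibitor that binds EGFR family kinases, averaged 16.9 ± 0.774 FPKM in K1 control and 52.5 ± 1.55 FPKM in TPC-1 control libraries. UBASH3B (-2.97) and CD2AP (-1.45), of the same list, were lower in K1 too, and whether either inhibits receptors in these cells was not tested. No gene of the 4 lists was called with TRIM35 siRNA in K1, in TPC-1 or for the difference.

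**Figure D5:**
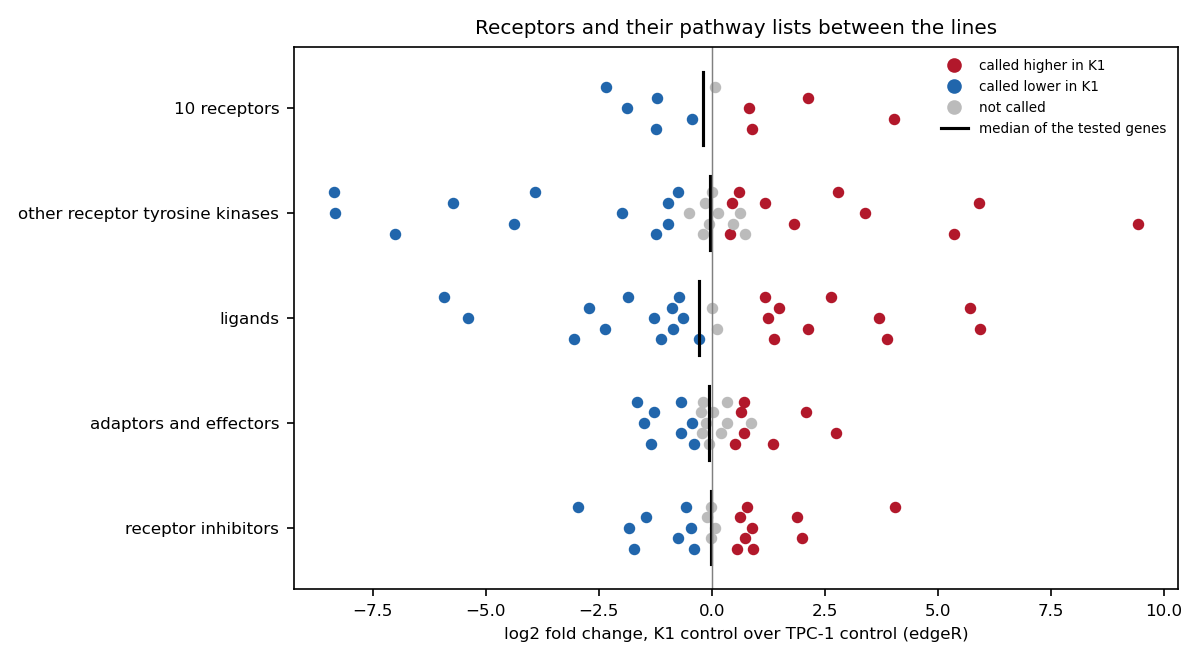
Log2 fold change of K1 control over TPC-1 control (horizontal axis) for the tested genes of each list; each point is a gene, red if called higher in K1, blue if lower and grey if not called, and black lines are medians. The medians lie between -0.29 for ligands and -0.02 for receptor inhibitors, with called genes on both sides in each list.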

How the data were processed

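RNA-seq of 12 libraries was used, 3 in each of 4 groups. The authors deposited 1 table of raw read counts and FPKM per gene; the submitters' processing notes name cutadapt 1.9.1 and the build hg38. No aligner, counter, annotation release or strandedness was stated in the sources used here. The deposited counts are whole numbers, and the deposited FPKM values equal counts per exonic size and per library count sum. Per the labels' protocols, cDNA was random-primed from total RNA extracted with TRIzol. The labels give 1 batch for all libraries.

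The test on counts was edgeR 4.0.16 under R 4.3.3 (filterByExpr, TMM, glmQLFit and glmQLFTest), 1 mean per group over all 12 libraries with 8 residual degrees of freedom. Of the genes, 17447 were tested and 44359 removed, which held at most 0.200% of a library's counts. Calls are at a Benjamini-Hochberg adjusted p under 0.05 over all tested genes, and intervals are at 95%. The script was tested on simulated data. Depth was 16705044 to 22928861 counts. Reads carry no molecular identifiers, and no replicate pair matched within sampling noise (chi-square per degree of freedom 4.33 to 66.4).

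The receptors, lists and rule were chosen with earlier results of these data known. The rule names all 10 receptors and, from each pathway list, in each direction, the 4 (or fewer) called genes of lowest adjusted p between control libraries whose higher group averaged 1 FPKM or more. Alternatives were DESeq2 1.42.0, limma 3.58.1 on log2(FPKM + 0.1) and log2(FPKM + 1), other scalings, no filter, only the groups compared, a replicate block and libraries left out. Sequences are from RefSeq; protein sequences were not used.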

Additional observations from a re-analysis of the deposited data

How the results depend on the processing

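Over 18 called results of the receptors, 424 recomputed values held no change of direction and 410 stayed past the threshold; the rest were MET, as given above and, between control libraries, with limma on log2(FPKM + 0.1) without a filter (-0.34, adjusted p = 0.0629). Of 32 uncalled results, 20 changed sign under at least 1 alternative. The count of receptors higher in K1 was 2 in siRNA and 2 in control libraries with limma on log2(FPKM + 0.1) and on log2(FPKM + 1), since ERBB3 and PDGFRA do not reach 1 FPKM in 3 libraries and left the fit. Leaving out each library gave 4 higher in both comparisons, 4 to 5 lower in siRNA libraries and 5 in control libraries. Upper quartile scaling moved the median of all genes by 0.13 on the log2 scale in siRNA and 0.14 in control libraries. Relative to it, the receptors' directions held. With a replicate block, 4 receptors were higher and 5 lower in K1 and none was called with siRNA. The numbers were not taken as pairs, since the lines disagreed. Same-numbered deviations correlated at 0.311, 0.0721 and 0.330 in TPC-1, each library best with its own number, and at -0.465, 0.0713 and -0.498 in K1. The block fitted the same replicate effect to both lines, so pairing within TPC-1 alone was not tested. Depth limits PDGFRA and ERBB3 in TPC-1, where no library exceeded 12 counts.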
